A study of Prunus persica with 8 samples.

Results

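The features described here are the loci whose identifiers begin with XLOC_ in an expression table of peach flower buds and whose mean over the 4 stages measured was at least 5 FPKM (fragments scaled to feature length and library size). They were selected on that mean alone, and 209 of the 1116 XLOC features passed, in a table of 22285 features. Most of the other rows, 20839, carry PRUPE identifiers of annotated peach genes, and 11972 of these also had a mean of at least 5 FPKM. Buds of the nectarine cultivar Fantasia were taken from 10-year-old trees at 0, 200, 475 and 770 chilling units (0CU, 200CU, 475CU and 770CU) during the winter rest, with 2 total RNA libraries per stage made after removal of ribosomal RNA. All stages share the cultivar, the orchard and the tissue. Every stage was collected on its own day, so chilling and collection day cannot be told apart. The study describes its biological replicates as buds from separate groups of trees, except for 200CU, where nothing is said, and the labels do not tie a library to a group of trees. For 200CU the spread between libraries may therefore be technical.

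A chilling unit is a measure of cold exposure, and the buds of peach need a certain amount of it before they leave dormancy and can flower. XLOC is the prefix that transcript assembly programs give to loci built from reads. Such loci can be genes that an annotation lacks, non-coding RNAs, ends of annotated genes or pieces of repeats, and the prefix does not tell these apart. Libraries depleted of ribosomal RNA keep RNAs without a poly(A) tail, which adds to what an assembler finds. No sequence, position or gene name was paired with the XLOC identifiers, and 0 of the 22285 features matched the RefSeq peach genes, so that the members are given by identifier only. Whether they lie outside annotated genes was therefore not checked. The few PRUPE genes that the study names are mostly regulators of chromatin, which are not specific to buds, and tissue identity was not checked from them. Of these, the CMT3-like DNA methyltransferase gene PRUPE_6G011600 was at 5.38 to 8.92 FPKM over the stages and the HDA19-like histone deacetylase gene PRUPE_8G183700 at 33.4 to 63.8 FPKM.

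The table gives 1 FPKM value per stage, which is named here the stage value of the authors. For 199 of the 209 members the 4 stage values could be split into 2 libraries, each with a whole fragment count at 1 common length. These recovered libraries cannot be matched to replicate numbers and are named the larger and the smaller library of a stage, by their effective sizes (the fragment totals by which FPKM was scaled) of 18051083 to 25374451 fragments. The test was limma on log2(FPKM + 1) of all 8 recovered libraries over 18327 features, with Benjamini-Hochberg adjustment over all of them, and a feature was called at an adjusted p below 0.05. All 199 members with recovered libraries passed the filter of 1 FPKM in 2 libraries. For the 10 other members only stage values are given, with no test.

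Of all XLOC features 18.7% reached the limit of 5 FPKM, against 57.4% of the PRUPE features, and above it the levels of both were alike in the middle of their distributions. Over all XLOC features the median of the mean FPKM was 0.824, against 6.98 over all PRUPE features, and 620 XLOC features stayed below 1 FPKM. Among the members it was 16.5 FPKM, from 5.07 to 3323, and among the PRUPE features of at least 5 FPKM it was 16.03. A mean of at least 100 FPKM was reached by 36 members (17.2%) and by 618 of the PRUPE features (5.16%). The members together made up 4.43% of the summed FPKM outside the ENSRNA features (0CU), 4.30% (200CU), 4.41% (475CU) and 4.05% (770CU). ENSRNA features, 330 in all, are annotated non-coding RNAs. At every stage the 6 members with the highest values held between 44.5% and 49.9% of the members' sum.

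The members were short. Their recovered length had a median of 682 bases, with quartiles of 390.5 and 2228 and a span from 205 to 11466, against a median of 2276.5 in the PRUPE features of at least 5 FPKM. Below 1000 bases were 125 of the 199 (62.8%), against 10.2% of those PRUPE features. The depth behind a value was therefore moderate, with a median of 274 fragments in the library where a member had fewest, and 12 members had fewer than 10 fragments in at least 1 library. For a low member such as XLOC_013098_plus a library value rested on 6 to 189 fragments.

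From 0CU to 770CU the stage value, as log2(FPKM + 1), moved by 1 or more in 70 of the 209 members, 44 of them higher at 770CU and 26 lower. That is 21.1% higher and 12.4% lower. Among all 17974 features that reached 1 FPKM in 2 or more stages the shares were 3.82% and 4.08%, and in PRUPE features weighted to the members' level classes (5 to 10, 10 to 20, 20 to 50, 50 to 100, and 100 FPKM or more) they were 3.35% and 4.62%. With the stages rescaled to the same total, 51 members were higher and 10 lower. The steps between neighbouring stages gave smaller counts. From 0CU to 200CU 17 members were higher and 7 lower by at least 1, beside 2.06% and 1.24% of all features compared. From 200CU to 475CU 9 were higher and 0 lower, beside 0.59% and 0.351%. From 475CU to 770CU 1 was higher and 2 were lower, beside 0.684% and 2.0%. Leaving out the larger 200CU library moved the count of the first step from 24 to 49 and that of the second from 9 to 25, and leaving out the larger 770CU library moved that of the third from 3 to 24. Without the larger 770CU library the whole course gave 40 higher and 41 lower, so that the counts in both directions were then alike. Without the smaller 770CU library it gave 47 and 19. Without the larger 0CU library it gave 41 and 26, and without the smaller one 54 and 27. The shares of all features were not counted with a library left out.

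**Figure D1:**
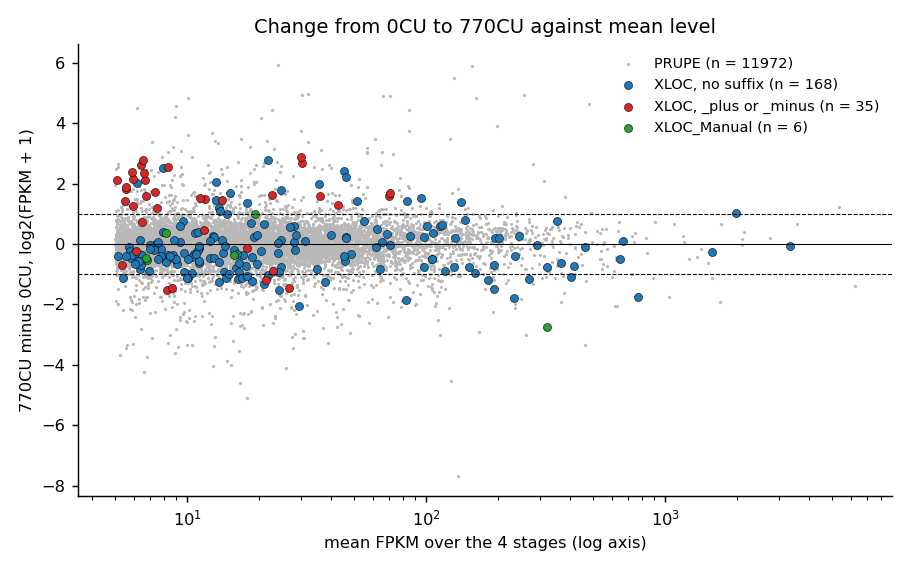
Stage value at 770CU minus that at 0CU on the log2(FPKM + 1) scale (vertical) against the mean FPKM over the 4 stages (horizontal, log axis), for 11972 PRUPE features in grey and 209 XLOC members coloured by the form of their identifier. Dashed lines mark a difference of 1, which 44 members exceeded upwards and 26 downwards, and red points, the members with a strand suffix, lie mostly above the upper line.

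The range over the 4 stages, the highest minus the lowest stage value on the log2(FPKM + 1) scale, had a median of 0.80 in the members, with quartiles of 0.47 and 1.33. In PRUPE features weighted to the same level classes the median was 0.41. A range of at least 1 was found in 83 members (39.7%), against 11.4% of the weighted PRUPE features. In each level class the members had the larger share. At 5 to 10 FPKM it was 38.7% of 62 members against 9.54% of 3460 PRUPE features, and at 20 to 50 FPKM it was 50% of 38 against 10.2% of 3278. The gap was smallest in the highest class, with 36.1% of 36 members against 18.8% of 618. The spread within stages was also wider in the members. At 200CU the 2 libraries differed by a median of 0.30 in the members and of 0.13 in the PRUPE features of at least 5 FPKM, and at 475CU by 0.11 and 0.08. The part of shorter length and fewer fragments in these ranges was not tested.

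**Figure D2:**
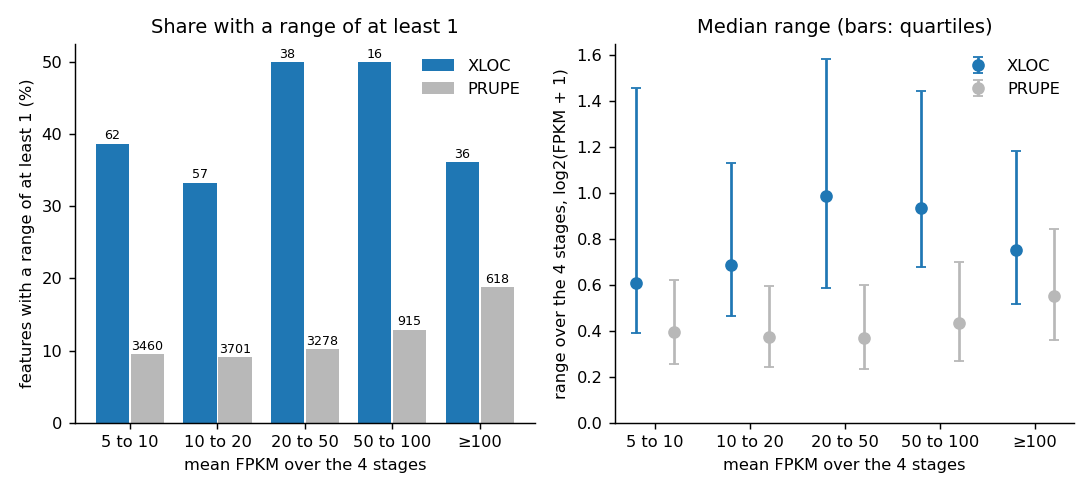
Left, the percentage of features with a range of at least 1 on the log2(FPKM + 1) scale in 5 classes of mean FPKM, for XLOC members (blue) and PRUPE features (grey), with the number of features above each bar. Right, the median range of the same features with bars from the lower to the upper quartile, which is 0.61 to 0.99 in the XLOC classes and 0.37 to 0.55 in the PRUPE classes.

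On the recovered libraries limma called 118 of the 199 members between 0CU and 770CU. Of these 48 (24.1%) rose and 70 (35.2%) fell, beside 21.5% and 19.7% of all features tested and 22.1% and 21.2% of the 11678 PRUPE features of at least 5 FPKM in the fit. The share that rose was near that of all features and the share that fell was above it. From 0CU to 200CU 28 rose and 30 fell (14.1% and 15.1%, beside 13.6% and 10.9%). From 200CU to 475CU 12 rose and 3 fell (6.03% and 1.51%, beside 1.88% and 1.22%). From 475CU to 770CU 8 rose and 25 fell (4.02% and 12.6%, beside 4.58% and 6.51%).

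The splits changed with the scaling, most of all with 1 of those tried, and with single libraries. With a library left out, a smaller share of all features was called too, in each of the fits given below. When the stages were rescaled to the same total, as in TPM, the median over all features from 0CU to 770CU moved from 0.0030 to 0.30, and the members called were 66 higher and 38 lower (33.2% and 19.1%, beside 48.1% and 8.18% of all features). For the 3 steps the rescaled splits were 50 higher and 9 lower (beside 33.6% and 4.24% of all features), 11 and 11 (beside 1.28% and 5.49%), and 40 and 12 (beside 27.4% and 4.36%). With the same total taken without the ENSRNA features the step from 475CU to 770CU gave 16 higher and 19 lower (beside 8.81% and 4.85% of all features). Quantile normalization gave 12 and 22 there (beside 4.95% and 5.9%), and median of ratios gave 8 and 25 (beside 4.53% and 6.57%). The whole course gave 50 higher and 66 lower with the first of these, and 48 and 70 with either of the others. Without the smaller 770CU library it gave 47 higher and 44 lower, beside 12.9% and 11.2% of all features. From 0CU to 200CU the 30 falls became 12 without the larger and 18 without the smaller 0CU library, with 29 and 32 rises, and without the smaller 200CU library 19 rose and 21 fell. The calls from 200CU to 475CU fell from 15 to 6 or 3 without the larger or the smaller 200CU library, and to 2 or 0 without the larger or the smaller 475CU library. In the last of these, hardly any feature of the whole fit was called either. From 475CU to 770CU the count went from 33 to 8 or 11 without the larger or the smaller 475CU library and to 4 without the smaller 770CU library.

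The members differed by the form of their identifier. Of the 209, 168 have a number and no suffix, 18 end in _plus, 17 end in _minus and 6 begin with XLOC_Manual. The labels and methods do not say what the suffix means, and it is read here as the strand. Suffixed identifiers are common among all XLOC features (608) but rarely reached 5 FPKM (5.76% of them, against 33.9% of the 496 with no suffix). In 6 of the 8 chromosomes, as read from the PRUPE identifier of the row above, every suffixed number lay above every number without a suffix.

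Among the 35 suffixed members, 26 rose and 6 fell between 0CU and 770CU (74.3% and 17.1%, limma). The limit of 5 FPKM is on a mean that includes 770CU, so a feature low at 0CU can pass it through the later stages. This split therefore describes the features so chosen, and suffixed XLOC features at 1 to 5 FPKM had a median difference of 0.02. Of the 159 members without suffix and with recovered libraries, 21 rose and 62 fell (13.2% and 39.0%), but when the stages were rescaled to the same total these were 37 and 34, while the suffixed members gave 27 and 4. Over the leave-one-out fits the suffixed members gave 23 to 27 calls upwards and 2 to 6 downwards. The members without suffix gave 17 to 28 upwards and 41 to 66 downwards, with 41 when the smaller 770CU library was left out. The stage value of the suffixed members differed by a median of 1.57 from 0CU to 770CU, with 0.59, 0.43 and 0.49 for the 3 steps, and that of the members without suffix by −0.29. At all 3 steps 22 of the 35 were higher than at the stage before, against 18 of the 168. The libraries of 770CU lay above those of 0CU with no overlap in 27 of the 35 and below them in the other 8. In the 159 members without suffix they lay above in 30 and below in 79. A lack of overlap between 2 and 2 libraries was thus frequent in both forms. Its share over all features was not counted, so whether these counts are particular to the members cannot be told. The mean level of the suffixed members was lower, with a median of 8.21 FPKM against 18.5, and their lengths lay between 207 and 3284 bases. At 200CU their 2 libraries stood apart, the larger one being higher in only 9 of 35, with a median difference of −0.43. In the members without suffix the larger one was higher in 79 of 159, with a median difference of −0.004. The first 2 steps of the suffixed members rest on these unequal libraries.

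The suffixed members were of 34 numbers, XLOC_006169 being listed on both strands, so they are not all independent. Both strands of XLOC_006169 had a length of 591 bases. Its _minus form had stage values of 36.2 FPKM (0CU), 60.6 (200CU), 71.0 (475CU) and 111 (770CU), and its _plus form had 3.17, 3.95, 7.68 and 8.96. The weaker strand stood at 8.53% of the stronger and was higher at each stage, as the stronger one was.

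The other pairs were alike in having 1 length and 1 direction from 0CU to 770CU, though some fell and some weaker strands dipped at 200CU. The opposite strand was listed for 31 of the 34 numbers, and in all 31 pairs it had the same recovered length as the member. Its mean level was a median of 9.31% of that of the stronger strand, from 1.78% in XLOC_016307_plus to 33.2% in XLOC_018891_minus. In 31 of 31 pairs both strands differed between 0CU and 770CU in the same direction. In the 23 pairs whose stronger strand was higher by at least 1, the median difference was 1.82 on that strand and 0.91 on the weaker one. The weaker strands lay between 0.109 and 5.94 FPKM, where the added 1 compresses differences. Reads of a transcript that were counted on the wrong strand and transcription from both strands cannot be told apart in these values.

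**Figure D3:**
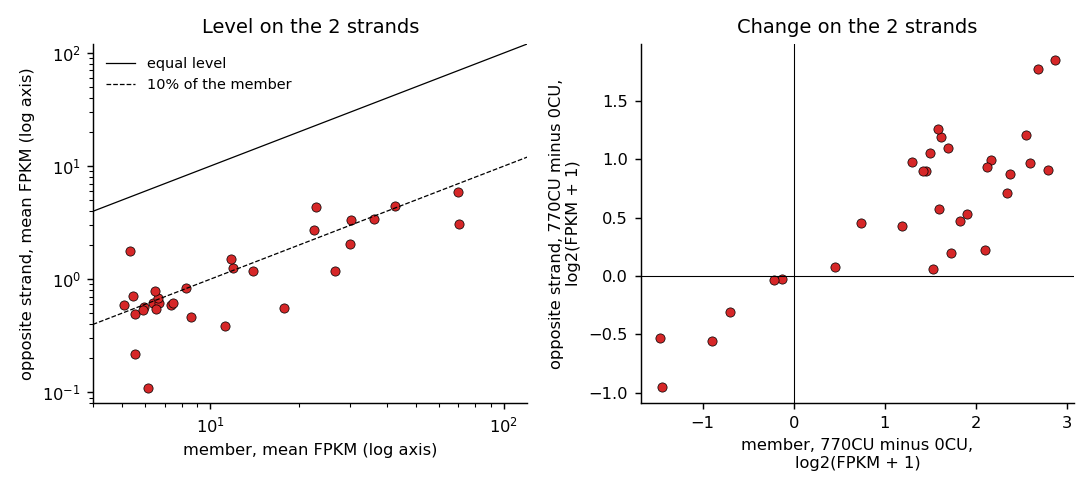
Left, mean FPKM over the 4 stages of the opposite strand against that of the suffixed member for 31 pairs, both on log axes, with a solid line at equal level and a dashed line at 10% of the member. Right, the stage value at 770CU minus that at 0CU on the log2(FPKM + 1) scale for the same pairs, in which no pair lies in a quadrant of opposite signs.

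Among PRUPE identifiers with a suffix, of the 16 with a mean of at least 5 FPKM 8 were higher at 770CU by at least 1 and 0 were lower, with a median difference of 1.18. At 1 to 5 FPKM a difference of at least 1 upwards was found in 20.7% of 121 suffixed XLOC features, in 10.2% of 49 suffixed PRUPE features and in 8.59% of 163 XLOC features with no suffix, and downwards in 4.96%, 4.08% and 3.68%. The median differences at that level were 0.02, −0.04 and −0.05. Below 1 FPKM the shares were 0.442%, 1.27% and 1.82%, again on a scale that compresses low values.

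Of the 6 members with recovered libraries and the largest differences upwards in stage value, 5 carried a suffix. XLOC_025722_minus, of 428 bases, had 7.15 and 5.82 FPKM in the larger and the smaller library of 0CU, 20.6 and 39.4 (200CU), 25.6 and 33.8 (475CU), and 49.4 and 58.1 (770CU). Both 0CU libraries lay below all others and both 770CU libraries above. The rise from 0CU to 770CU was 2.87 ± 0.28 (SE) on the log2(FPKM + 1) scale in limma (adjusted p = 0.000274), and most of it came with the first step (1.99 ± 0.28, adjusted p = 0.00319).

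XLOC_020431, of 293 bases and without suffix, went the same way with less spread. Its libraries gave 5.97 and 4.16 FPKM (0CU), 14.5 and 18.5 (200CU), 22.1 and 26.7 (475CU), and 41.0 and 40.9 (770CU). No library overlapped with one of another stage, and the rise over the whole course was 2.81 ± 0.17 (limma adjusted p = 4.35e-05).

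XLOC_009640_plus, of 405 bases, had 7.43 and 7.52 FPKM (0CU), 21.7 and 32.2 (200CU), 29.9 and 35.9 (475CU), and 48.5 and 58.8 (770CU). It rose by 2.68 ± 0.18 (limma adjusted p = 6.54e-05). The libraries of 200CU and 475CU overlapped, while those of 0CU and 770CU stood apart.

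The other 3 were weak at 0CU and reached a mean of 5 FPKM through the later stages. Their rises thus describe members chosen with the help of the same values, and the p-values are no separate support. XLOC_006067_minus, of 587 bases, had 1.16 and 1.32 FPKM (0CU), 3.96 and 5.08 (200CU), 8.78 and 5.70 (475CU), and 10.6 and 14.6 (770CU), a rise of 2.59 ± 0.21 (limma adjusted p = 0.000142). XLOC_013065_minus, of 583 bases, had 1.5 and 2.76 FPKM (0CU), 3.99 and 2.95 (200CU), 10.8 and 9.67 (475CU), and 17.5 and 17.1 (770CU). Unlike in the members above its largest step was that from 200CU to 475CU (1.34 ± 0.20, limma adjusted p = 0.0203).

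XLOC_013098_plus, of 395 bases, had 0.738 and 2.10 FPKM (0CU), 3.59 and 0.801 (200CU), 7.74 and 5.94 (475CU), and 19.2 and 12.3 (770CU). The libraries of 0CU and 200CU overlapped, on 6 and 15 fragments at 0CU and 36 and 7 at 200CU. Its rise over the whole course was 2.82 ± 0.45 (limma adjusted p = 0.00254), the largest standard error of the 6.

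**Figure D4:**
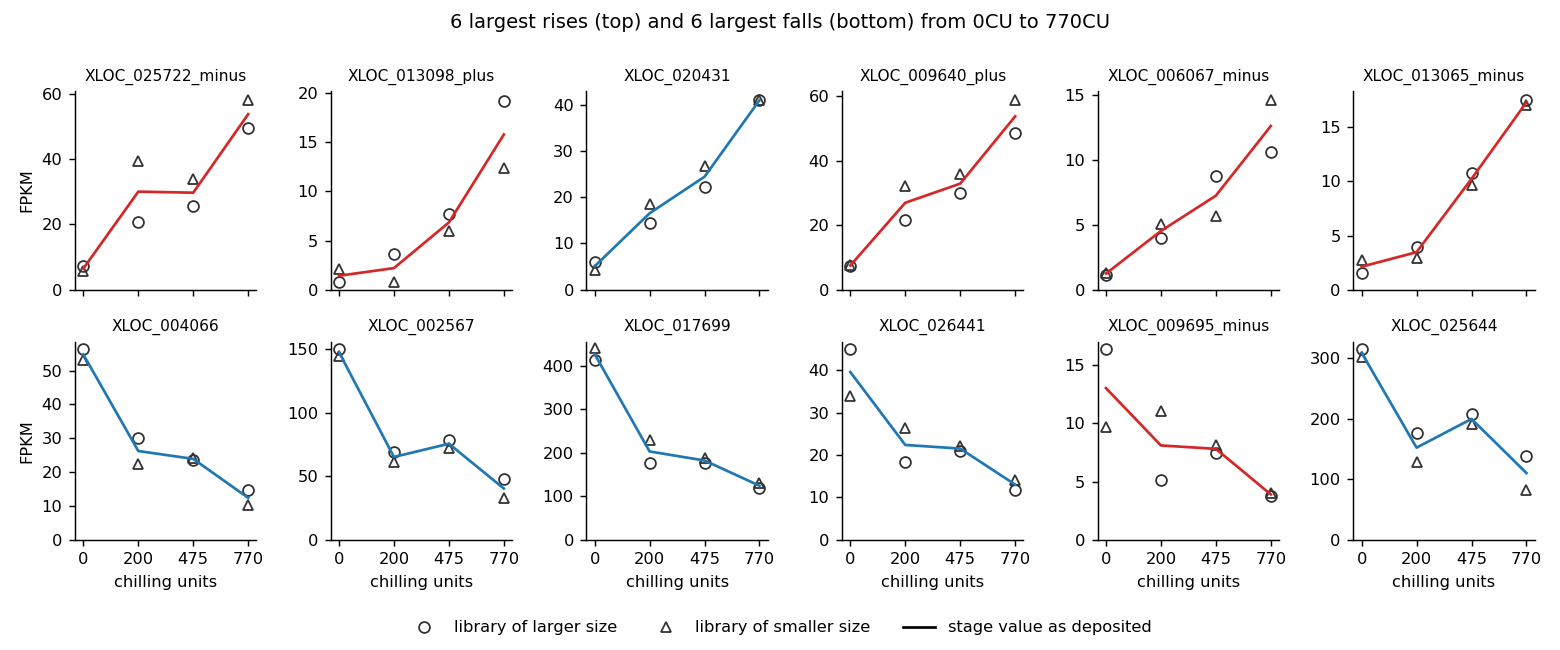
FPKM (vertical, from 0) at 0, 200, 475 and 770 chilling units for the 6 members with the largest differences upwards (top) and downwards (bottom) among those with recovered libraries. Circles and triangles are the larger and the smaller library and lines join the stage values, in red for suffixed members and in blue for the others, and in all 12 the libraries of 0CU and 770CU do not overlap.

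Among the members with recovered libraries the 6 largest differences downwards in stage value were in 5 members without suffix and in 1 with a suffix, with limma values from 1.48 to 2.08 below 0CU. The limma values of the 6 ranked highest upwards by stage value were from 2.58 to 2.87. XLOC_004066, of 363 bases, had 56.3 and 53.3 FPKM in the larger and the smaller library of 0CU, 30.1 and 22.4 (200CU), 23.6 and 24.2 (475CU), and 14.6 and 10.2 (770CU). It fell by 2.08 ± 0.18 (limma adjusted p = 0.000165), in the first and in the last step. From 200CU to 475CU its libraries overlapped.

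XLOC_017699, of 694 bases, was the most abundant of the 6. Its libraries gave 413 and 439 FPKM (0CU), 177 and 229 (200CU), 175 and 188 (475CU), and 118 and 130 (770CU). It fell by 1.77 ± 0.14 (limma adjusted p = 0.000114), and the first step was −1.08 ± 0.14 (adjusted p = 0.0024), the libraries of 200CU and 475CU overlapping.

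XLOC_002567, of 354 bases, and XLOC_025644, of 468 bases, fell but stood higher at 475CU than at 200CU. The first had 150 and 145 FPKM (0CU), 69.4 and 60.8 (200CU), 78.7 and 72.2 (475CU), and 48.0 and 32.5 (770CU). The second had 315 and 302 FPKM (0CU), 175 and 128 (200CU), 207 and 192 (475CU), and 137 and 82.7 (770CU). Their falls were 1.87 ± 0.17 and 1.52 ± 0.24 (limma adjusted p = 0.00021 and 0.00222), and neither step from 200CU to 475CU passed the test (0.21 ± 0.17 and 0.41 ± 0.24, adjusted p = 0.516 and 0.372).

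XLOC_026441, longer at 2545 bases, had 45.2 and 34.1 FPKM (0CU), 18.4 and 26.4 (200CU), 20.9 and 22.2 (475CU), and 11.9 and 14.2 (770CU). It fell by 1.52 ± 0.19 (limma adjusted p = 0.000808). XLOC_009695_minus, of 373 bases, had 16.4 and 9.65 FPKM (0CU), 5.18 and 11.0 (200CU), 7.46 and 8.16 (475CU), and 3.77 and 4.02 (770CU), a fall of 1.48 ± 0.32 (limma adjusted p = 0.00872). The next row of the table is XLOC_009696_minus, whose stage values of 13.4, 8.51, 8.29 and 4.23 FPKM took the same course. Whether both are pieces of 1 transcript was not tested.

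Members with a difference of at least 1, in either direction, had a lower median length than the rest, though the lengths overlapped widely. The 44 higher ones had a median length of 566 bases (43 with a length), the 26 lower ones of 514 (23 with a length) and the other 139 of 944 (133 with a length). The quartiles were 430 and 657.5 in the higher ones, 363 and 1240 in the lower ones, and 386 and 3166 in the others. Of the higher ones 25 carried a suffix and of the lower ones 4.

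The most abundant member was XLOC_022890, with stage values of 3395 FPKM (0CU), 3643 (200CU), 2995 (475CU) and 3261 (770CU). It ranked 4 among all features other than ENSRNA and varied little, with a range of 0.28. XLOC_026107 was listed at 1078, 2106, 2548 and 2186 FPKM, so that 0CU stood apart from the 3 later stages by 0.97 or more on the log2(FPKM + 1) scale. XLOC_012195 was listed at 1499, 1713, 1846 and 1235 FPKM, lowest at 770CU, and XLOC_006564 at 574, 682, 787 and 616 FPKM, lowest at 0CU. These 4 have no recovered libraries, so whether their differences exceed the spread between libraries is not known.

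Of the other highest members XLOC_008359, of 295 bases, had 745 and 801 FPKM (0CU), 662 and 525 (200CU), 670 and 676 (475CU), and 631 and 458 (770CU). Its difference over the course was −0.52 ± 0.19 and did not pass the test (limma adjusted p = 0.0648). It passed in a fit without the mean-variance trend and, at −0.75, without the larger 770CU library. XLOC_025918 was listed at 1245, 834, 637 and 367 FPKM, lower at every stage than at the one before. It stands in the table beside features of the same course, which were looked at after its values were seen. The next row is an ENSRNA feature with 27.3, 12.6, 10.8 and 13.7 FPKM, lowest at 475CU. After it comes PRUPE_8G030800, with 2959, 1706, 1355 and 783 FPKM, and then XLOC_Manual010, with 656, 279, 242 and 96.9 FPKM. The differences from 0CU to 770CU were −1.76 in XLOC_025918, −1.92 in PRUPE_8G030800 and −2.75 in XLOC_Manual010, given without a test. Of the PRUPE features on either side, PRUPE_8G030900 was at 8.11 to 15.2 FPKM and did not share this course. PRUPE_8G030300, at 0.224 to 0.399 FPKM, was too low to show whether it did. The table is not sorted by level, and 99.3% of consecutive numbered PRUPE rows are in ascending order.

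The correlation between adjacent rows was low. The difference from 0CU to 770CU of members without suffix and that of the nearest PRUPE row of at least 5 FPKM had a Pearson r of 0.05 for the row above (71 pairs) and of 0.12 for the row below (95 pairs), against 0.25 for consecutive PRUPE rows (7286 pairs). Over all members it was 0.23 for the row above (96 pairs) and −0.06 for the row below (117 pairs). These are correlations across features that share their libraries, and features are not replicates. XLOC_002082 and its adjacent rows were chosen after their values were seen. It was listed at 50.3, 51.5, 28.2 and 20.3 FPKM, between PRUPE_1G385300_1G385400 at 88.4, 89.3, 48.2 and 22.3 FPKM and PRUPE_1G385500_1G385600 at 50.5, 54.2, 32.2 and 21.6 FPKM.

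Among the members not yet named, those highest in the middle of the course were XLOC_025701_plus, XLOC_011579 and XLOC_012764, by the mean of 200CU and 475CU minus that of 0CU and 770CU on the log2(FPKM + 1) scale. XLOC_011579, of 1922 bases, had 12.6 and 13.1 FPKM (0CU), 37.1 and 33.9 (200CU), 69.1 and 74.1 (475CU), and 68.9 and 59.4 (770CU). It rose in both of the first 2 steps (1.39 ± 0.10 and 0.99 ± 0.10, limma adjusted p = 0.00022 and 0.00745) and the last step, −0.16 ± 0.10, did not pass the test (adjusted p = 0.342). XLOC_025701_plus, of 286 bases, had 4.41 and 2.91 FPKM (0CU), 8.82 and 17.9 (200CU), 16.3 and 14.8 (475CU), and 13.2 and 11.8 (770CU), and rose in the first step (1.57 ± 0.28, limma adjusted p = 0.00866).

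XLOC_012764, of 480 bases, owed its place to 1 library. It had 0.809 and 159 FPKM in the larger and the smaller library of 0CU, on 8 and 1381 fragments, then 184 and 189 (200CU), 167 and 178 (475CU), and 159 and 123 (770CU). The change over the whole course was 3.05 ± 1.67 (limma adjusted p = 0.179), and without the larger 0CU library it was −0.19.

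Other members shared this pattern. When the members were searched, after these values had been seen, for a library more than 10-fold below the other of its stage with at least 40 fragments in the other, 9 members met this in the larger 0CU library and 0 in each of the other 7 libraries. Among the PRUPE features of at least 5 FPKM 2 of 11614 met it there, against 9 of 177 members. All 9 have no suffix and are 205 to 956 bases long. They had 0 to 9 fragments in the larger 0CU library and were 34.8 to 343 times as high in the smaller one, leaving aside XLOC_007542 with 0 fragments. XLOC_008754, of 709 bases, had 0.411 and 141 FPKM (0CU), 162 and 87.3 (200CU), 154 and 152 (475CU), and 110 and 105 (770CU). XLOC_012249, of 518 bases, had 0.469 and 140 FPKM (0CU), 117 and 95.9 (200CU), 172 and 183 (475CU), and 116 and 104 (770CU). The smaller 0CU library lay within the span of the 6 libraries of the later stages in both.

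The other 6 were XLOC_010652, XLOC_012143, XLOC_014626, XLOC_015958, XLOC_021637 and XLOC_007542. Just outside the limit were XLOC_020742, with 1.13 and 11.2 FPKM at 0CU, and XLOC_022035, with 10.1 and 73.3. The 2 PRUPE features were PRUPE_6G146800, with 1.21 and 157 FPKM at 0CU and 102 to 217 in the other 6 libraries, and PRUPE_4G162500_I, with 0.920 and 18.6 FPKM. Both are also short, at 201 and 211 bases. The stage value of 0CU is the mean of such unequal libraries, and the median difference of the 9 from 0CU to 770CU went from 0.64 to −0.34 when the larger 0CU library was left out. None of the 9 was called between these stages (limma, lowest adjusted p = 0.114). With the 9 removed from the count, 43 members were higher and 26 lower by at least 1, beside 44 and 26 with them. What sets these loci apart in that library was not tested.

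**Figure D5:**
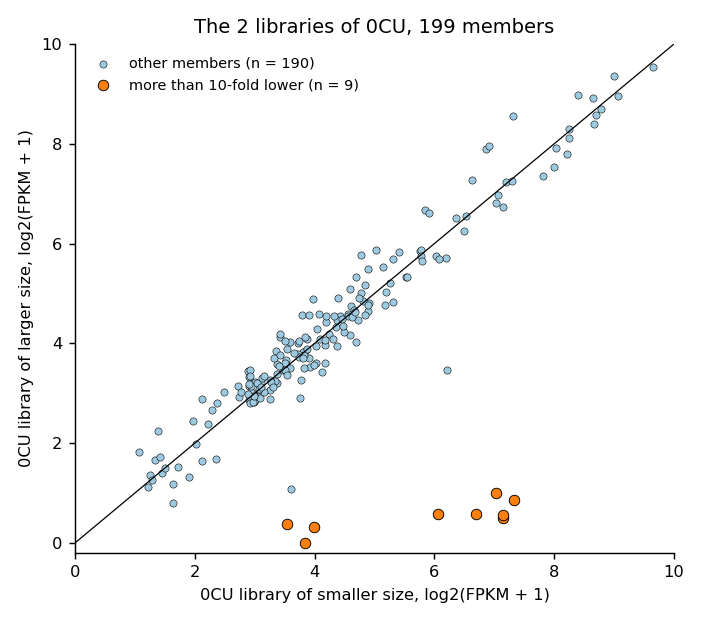
The larger 0CU library against the smaller one on the log2(FPKM + 1) scale for the 199 members with recovered libraries, with a line of equality. The 9 orange points, with 0 to 9 fragments in the larger library, lie near 0 on the vertical axis and between 10.6 and 159 FPKM on the horizontal one.

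At the other end of the rule for the middle stages were XLOC_004312, XLOC_021428 and XLOC_006537. XLOC_021428, of 3106 bases, stayed at 10.6 and 9.54 FPKM (0CU), 9.57 and 10.9 (200CU), and 12.0 and 11.9 (475CU), and then reached 24.1 and 20.9 (770CU). All of its called change came in the last step (0.86 ± 0.10, limma adjusted p = 0.00311). XLOC_004312, of 358 bases, had 38.9 and 24.8 FPKM (0CU), 9.47 and 14.4 (200CU), 14.9 and 20.2 (475CU), and 12.7 and 13.2 (770CU), and fell in the first step (−1.34 ± 0.25, limma adjusted p = 0.00955). XLOC_006537, of 1411 bases, had 13.2 and 13.0 FPKM at 0CU and 6.79 to 8.33 in the 6 later libraries, and fell in the first step too (−0.62 ± 0.08, limma adjusted p = 0.00241).

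The most frequent course of the stage values was lower, higher, lower over the 3 steps. It was found in 60 members (28.7%), against 14.8% of PRUPE features weighted to the same level classes. Values higher at every step were found in 41 members (19.6%, against 11.9%) and lower at every step in 28 (13.4%, against 10.9%). The 60 had a median length of 380 bases, and their median differences were −0.51, 0.35 and −0.50 for the 3 steps. The same libraries that chose the 60 gave limma calls for 19 of them in the first step, 6 in the second and 10 in the third, a description with no support of its own. The summed FPKM of the ENSRNA features took the same course, with 324613 (0CU), 195690 (200CU), 248569 (475CU) and 171439 (770CU). When each stage was scaled to the same total, 34 of the 60 and no other member showed this course. Of PRUPE features of at least 5 FPKM 1.97% then showed it. Among the members it was no longer the most frequent. Values higher at every step were then found in 47 members, against 13.0% of those PRUPE features. The course higher, lower, higher was also found in 47 members, against 52.3% of those PRUPE features. The share of the members was thus above that of the PRUPE features for values higher at every step and below it for higher, lower, higher. When scaled to the same total without the ENSRNA features 53 of the 60 and no other member were lower, higher, lower, against 7.72%. The part of the ENSRNA share in this course was not tested further.

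XLOC_018891_minus, of 244 bases, showed this course in all 3 steps. Its libraries gave 5.97 and 6.58 FPKM (0CU), 3.55 and 2.59 (200CU), 7.48 and 9.41 (475CU), and 4.45 and 2.49 (770CU), on 13 to 46 fragments. The steps were −0.85 ± 0.22, 1.22 ± 0.22 and −1.11 ± 0.22 (limma adjusted p = 0.0298, 0.0357 and 0.0196). It was 1 of the 3 members just above the limit of 5 FPKM, with a mean of 5.32.

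The other 2 just above the limit were XLOC_025688_plus, with a mean of 5.07, and XLOC_008134, with a mean of 5.14. XLOC_025688_plus, of 348 bases, had 1.40 and 1.43 FPKM (0CU), 2.83 and 4.16 (200CU), 5.38 and 6.60 (475CU), and 9.35 and 9.42 (770CU), on 9 to 81 fragments, and rose by 2.11 ± 0.15 (limma adjusted p = 8.84e-05). XLOC_008134, the longest member with 11466 bases, had 6.26 and 6.52 FPKM at 0CU and 4.51 to 5.09 in the later libraries. Just below the limit were XLOC_018360 with a mean of 4.998 FPKM, XLOC_014417 with 4.98 and XLOC_012406 with 4.97. These values chose the members and are given as a description.

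The 3 members with the smallest range were long. XLOC_011984, of 4690 bases, had 7.40 and 7.38 FPKM (0CU), 8.27 and 7.13 (200CU), 7.02 and 7.40 (475CU), and 7.30 and 7.33 (770CU). XLOC_006457, of 4932 bases, lay between 5.64 and 6.98 FPKM in the 8 libraries, and XLOC_017779, of 3672 bases, between 8.44 and 10.7. Their ranges were 0.08, 0.14 and 0.15, and no step of the 3 passed the test. Rescaled to the same total, XLOC_006457 and XLOC_017779 passed it over the whole course, at 0.44 and 0.39. A p above the threshold does not show that the level was constant.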

How the data were processed

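Flower buds of peach were profiled by RNA-Seq at 4 stages, with 150 nt paired-end Illumina reads. The authors deposited FPKM values with a single column per stage, and the submitters' processing notes name Trimmomatic 0.39, HISAT2 and featureCounts. The genome build, the assembler of the XLOC loci and the handling of strand in counting are not given in the sources used here. FPKM divides by length and library total. No column of values was left unused.

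Each deposited FPKM was split into 2 libraries of whole fragments at 1 common length for each feature. The search succeeded for 21970 features (98.6%), with rebuilt values of at least 1 FPKM within 5e-10 of the deposited ones. It was tested on simulated data, as was the limma fit. Solved features held 13059592 to 18529580 fragments per library. Stage values were compared by differences of log2(FPKM + 1), which understate changes of low features, over features of at least 1 FPKM in 2 stages. Libraries were compared with limma 3.58.1 (R 4.3.3, with a mean-variance trend) in 1 fit over all stages. Recovery used Python 3.11.15, numpy 2.4.6 and numba 0.67.0.

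Members named were the 6 of highest mean, the 6 largest rises and 6 largest falls among those with recovered libraries, 3 each highest and lowest in the middle stages among the rest, the 3 of smallest range, and the 3 on either side of 5 FPKM. The members, lists and rules were chosen with earlier results of these data known. Alternatives covered the pseudocount, filter, limits, scaling, trend, stages in the fit and left-out libraries.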

Additional observations from a re-analysis of the deposited data

How the results depend on the processing

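No paired analysis was possible because neither the deposited columns nor the recovered libraries carry a replicate number. In order of the 3 steps and then the whole course from 0CU to 770CU, the counts of members called were 58, 15, 33 and 118. The shares of all features beside these are given above. Fitting only the 2 stages compared gave 30, 3 and 68 for the 3 steps, with no share of all features counted. Rescaling to the same total (TPM) gave 52 for the last step, beside 31.8% of all features. Members of at least 10 FPKM gave 8 in the second step and 78 over the whole course, out of 137. Leaving out 1 library gave 40 to 54, 0 to 17, 4 to 42 and 91 to 123. The share of all features called moved with the left-out library too, so these shifts are not particular to the members. Stage values differing by at least 1 were counted in 24, 9, 3 and 70 members. For such counts the share of all features was taken only at a limit of 1, a pseudocount of 1 and the values as deposited. The alternative counts that follow therefore show how the count moves, not whether it is unusual. With a limit of 0.5 the counts were 94, 50, 76 and 125. From 475CU to 770CU a pseudocount of 0.1 gave 5 and the same total 5. Members of at least 10 FPKM gave 2 in the second step and 1 in the third. Leaving out 1 library, an alternative chosen after seeing the data, gave 22 to 49, 9 to 25, 2 to 24 and 66 to 81 members, and a median range of 0.74 to 0.93 beside 0.80.

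For the change from 0CU to 770CU, the 30 members named had 425 alternative values. Of these 401 stayed on the same side, 5 passed the test only in the alternative and 6 no longer passed. Another 7 with no test moved, and 6 reversed. In members with a test, several alternatives could not move the estimate, only its p. These were fits of only the stages compared, without the trend or filter, or without a library of a middle stage. The members named also include the largest rises and falls. The count of 401 is therefore no measure of robustness. With the same total XLOC_022890 moved from −0.06 to 0.29, XLOC_012195 from −0.28 to 0.071 and XLOC_011984 from −0.01 to 0.30, or to 0.021 without ENSRNA. With quantile normalization XLOC_022890 came to 0.00. Without the larger 0CU library XLOC_012764 moved from 3.05 to −0.19, and to 6.28 without the smaller one. The cause was not tested. Without the suffixed members, also added after seeing the data, 29.9% of 174 members had a range of at least 1, against 11.7% of weighted PRUPE features. With 2 libraries per stage and short features, a miss of the threshold can reflect depth.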
